A study of Arabidopsis thaliana with 9 samples.

Results

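The calmodulin-like genes described here are CML11 (AT3G22930), TCH3 (AT2G41100, also CML12), CML23 (AT1G66400), TCH2 (AT5G37770, also CML24), CML37 (AT5G42380), CML38 (AT1G76650), CML39 (AT1G76640), CML40 (AT3G01830) and CML42 (AT4G20780), 9 genes of the 33871 loci in the deposited table of Arabidopsis thaliana inflorescence RNA. Each was matched by its gene ID to the longest locus on its strand. The genes were chosen with the expression values of all 9 libraries in view, so their own levels and differences are given as a description, with no p-value, and a count of those past a threshold stands beside the share of all tested loci with nothing read from it. All 9 genes passed the filter on low values that left 19569 loci for testing, which needs a mean of at least 1 FPKM (fragments scaled by transcript length and library total) over the libraries.

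Inflorescences came from 5-week-old, soil-grown plants kept at 22 °C in long days. Every plant carried the genotype 35S:AP1-GR ap1,cal, in which the floral regulator APETALA1 is fused to the glucocorticoid receptor domain and driven by the broadly active 35S promoter, in a background lacking AP1 and CAULIFLOWER function. Such inflorescences keep forming meristems in place of flowers until dexamethasone lets the fusion protein into the nucleus. There were 3 groups of 3 biological replicates: untreated, cycloheximide for 2 h, and dexamethasone + cycloheximide for 2 h. Cycloheximide blocks the elongation step of translation, and the submitters used it as the mock for the inducer. No library received dexamethasone alone, and all plants carried the fusion, so an effect of dexamethasone itself and one of AP1-GR cannot be told apart. Untreated plants are labelled as non-treatment, and the labels name no group given a solution without either compound. Against untreated plants, an effect of applying the treatment and one of cycloheximide therefore cannot be told apart.

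Calmodulin is a small protein that folds around calcium through paired helix-loop-helix motifs, the EF hands, and then binds and alters other proteins. Calmodulin-like proteins share these motifs but differ from calmodulin in sequence and in the number of hands, and many of their genes in plants are known for fast transcript changes after touch, wounding, cold or pathogen signals. TCH3 and TCH2 were found as touch-induced transcripts in Arabidopsis, together with the calmodulin gene CAM2.

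Coding sequences show how the family divides. TCH3 has the longest coding sequence of the 9 at 975 bp, against 441 bp in CML40 and 474 to 576 bp in the other 7. A strict EF-hand loop was searched in the coding sequences, with 12 codons, aspartate at position 1, aspartate, asparagine or serine at positions 3 and 5, and glutamate at position 12. TCH3 held 6 such loops, CML11, CML23 and TCH2 held 4 each, CML37, CML38, CML39 and CML42 held 3 each, and CML40 held 1. Looser hands are missed by this pattern. The loops below are shown because they carry the repeat inside TCH3 and the likeness of its relatives. They are read 5′ to 3′ from the RefSeq genome and annotation of build TAIR10.1, and capitals mark the codons of the first aspartate and the last glutamate.
TCH3 loop 1: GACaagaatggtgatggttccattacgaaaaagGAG
TCH3 loop 3: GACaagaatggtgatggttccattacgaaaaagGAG
TCH3 loop 5: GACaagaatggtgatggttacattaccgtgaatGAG
TCH2 loop 1: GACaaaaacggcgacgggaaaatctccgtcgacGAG
CML23 loop 1: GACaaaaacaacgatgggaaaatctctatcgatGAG
CML38 loop 3: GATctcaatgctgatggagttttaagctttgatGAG
CML39 loop 3: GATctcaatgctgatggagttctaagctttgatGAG
CML40 loop 1: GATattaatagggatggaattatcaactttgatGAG

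Loops 1 and 3 of TCH3 differ at 0 of 36 bases, and so do its loops 2 and 4, while loops 1 and 5 differ at 6 of 36. Loop 1 of CML23 and TCH2 differs at 6 of 36 bases, and loop 3 of CML38 and CML39 at 1 of 36. Over whole coding sequences the closest pairs among the 9 were CML38 with CML39, identical at 81.7% of aligned bases, and CML23 with TCH2, identical at 81.2%. Beside the calmodulin gene CAM2, CML11 was identical at 73.0% of 448 aligned bases. TCH3 was identical to CAM2 at 75.9% of 444 aligned bases, out of its 975 bp. For the proteins the order was reversed, with CML11 identical to CAM2 at 74.5% of aligned residues and TCH3 at 63.8%. The longest exact run that the coding sequences of CML38 and CML39 share is 34 bases. Near matches and untranslated parts were not searched, so how far reads could be split between these 2 genes was not tested. CML11 shares a run of 61 bases with the coding sequence of AT4G17750, a heat shock factor gene, so part of its reads could be ambiguous. CML40 shared no run of 20 bases or more with another coding sequence.

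In the untreated inflorescences TCH2 and TCH3 were the most abundant transcripts of the 9. TCH2 had 129 ± 58.1 FPKM (mean ± SD, n = 3) and TCH3 had 109 ± 55.0, and their ranges overlapped. CML39 at 34.7 ± 24.6 and CML38 at 32.6 ± 11.7 FPKM came next, with ranges that overlapped each other and lay below TCH3. CML11 followed at 8.02 ± 0.884, CML23 at 4.88 ± 1.67 and CML42 at 3.10 ± 0.351 FPKM, each separate from the next. CML40 and CML37 were lowest, at 1.09 ± 0.262 and 1.09 ± 0.327 FPKM, with overlapping ranges. The order rests on FPKM, which divides by transcript length. The deposited locus of CML40 spans 3210 bp for 441 bp of coding sequence, so its level beside the others is uncertain.

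In both treated groups the order was different. With cycloheximide TCH3 stood first at 8489 ± 1879 FPKM (n = 3) and CML38 second at 1700 ± 461, each separate from the next. TCH2 at 610 ± 115, CML37 at 591 ± 125, CML39 at 330 ± 137, CML40 at 277 ± 97.7 and CML23 at 235 ± 63.8 FPKM formed a run in which each range overlapped that of its neighbour. CML42 at 22.3 ± 8.70 and CML11 at 7.51 ± 0.549 FPKM closed the order. TCH3, ranked 1796th by mean FPKM among the 19569 tested loci in untreated plants, ranked 62nd with cycloheximide and 40th with both compounds. CML37 went from rank 18453 to ranks 459 and 344. In these bulk samples, a change in the number of expressing cells and a change in RNA per cell cannot be told apart.

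**Figure D1:**
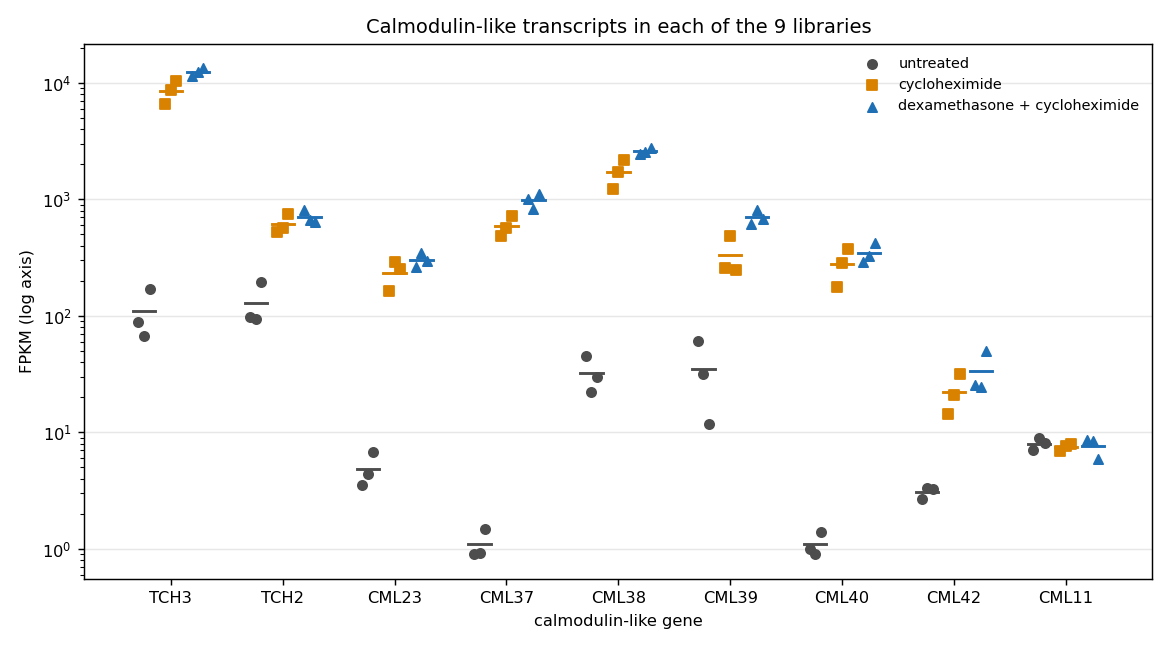
FPKM on a log axis of each of the 9 genes in each library. Points are libraries, short lines are group means of 3 libraries, and colours and shapes are the 3 groups. For 8 genes all 6 treated libraries lie above all 3 untreated ones, and CML11 stays between 5.84 and 8.85 FPKM throughout.

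Among the touch genes and their relative CML23, TCH3 had the highest level in treated libraries and the largest difference. TCH3, at 17137829 to 17139612 of chromosome 2 on the plus strand, had 89.0, 66.9 and 171 FPKM in untreated replicates 1, 2 and 3. Cycloheximide replicates 1, 2 and 3 had 6555, 8604 and 10308 FPKM, and those given dexamethasone + cycloheximide had 11447, 12356 and 13294. The 3 groups did not overlap, and untreated replicate 3 was the highest of its group. On the log2(FPKM + 1) scale the difference was 6.36 ± 0.35 (limma estimate ± SE, n = 3 per group) between cycloheximide and untreated libraries and 0.56 ± 0.35 between the treated groups. Summed over the 9 genes, TCH3 held 28.8% to 39.8% of the FPKM in untreated libraries, 68.7% to 69.6% with cycloheximide and 67.7% to 69.1% with both compounds.

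TCH2, a relative of CML23 that is known to act in flowering time and nitric oxide balance, had the smallest difference among the 8 genes with separate groups, close to that of CML42. TCH2, at 14998854 to 14999619 of chromosome 5 on the minus strand, had 97.5, 93.4 and 196 FPKM in untreated replicates. Under cycloheximide it had 527, 563 and 741 FPKM, and 812, 670 and 639 where dexamethasone was added. Untreated replicate 3 again stood above the other 2, and the treated groups overlapped. Its log2 difference was 2.30 ± 0.28 with cycloheximide against untreated, a ratio of mean FPKM of 4.73. From 31.7% to 45.6% of the 9 genes' summed FPKM in untreated libraries, its share was 4.49% to 5.59% with cycloheximide and 3.32% to 4.80% with both compounds.

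CML23, which acts in the same processes as TCH2, was a low transcript that came to stand among the middle ones. CML23, at 24770575 to 24771371 of chromosome 1 on the minus strand, had 3.54, 4.36 and 6.75 FPKM in the untreated group. The cycloheximide libraries had 164, 287 and 254 FPKM, and those with dexamethasone added had 263, 344 and 295. The untreated libraries lay far below all others, and the treated groups overlapped. The ratio of mean FPKM was 48.1 with cycloheximide against untreated, and the log2 difference was 5.32 ± 0.25. The mean FPKM of TCH2 was 26.4 times that of CML23 in untreated plants, 2.60 times with cycloheximide and 2.35 times with both compounds.

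**Figure D2:**
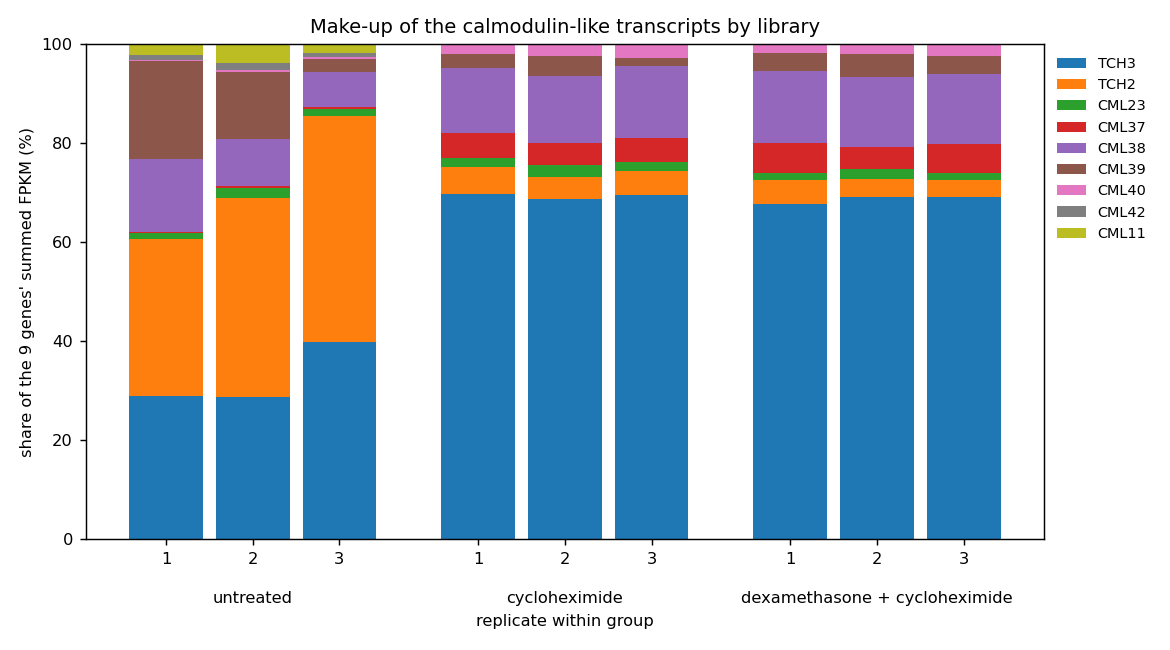
Share of the 9 genes' summed FPKM, in percent, held by each gene in each library, in stacked bars grouped by treatment. TCH3 makes up 28.8% to 39.8% in the untreated libraries and 67.7% to 69.6% in the 6 treated ones, where the share of TCH2 is at most 5.59%.

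CML37, a gene known for a positive part in defence against wounding and herbivores, had the largest difference of the 9. CML37, at 16942576 to 16943366 of chromosome 5 on the minus strand, had 0.895, 0.912 and 1.47 FPKM in the untreated group. Its cycloheximide libraries had 479, 568 and 725 FPKM, and with dexamethasone added it had 1009, 820 and 1102. The 3 groups did not overlap. The ratio of mean FPKM was 541 with cycloheximide against untreated. On the log2(FPKM + 1) scale, which understates changes from low values, the difference was 8.13 ± 0.18, the 16th largest of the 19569 tested loci.

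CML38, known from the response to low oxygen, and CML39, known from seedling establishment, lie 946 bp apart on the minus strand of chromosome 1. CML38, at 28766750 to 28768138, had 45.3, 22.3 and 30.1 FPKM untreated, 1236, 1707 and 2158 under cycloheximide, and 2453, 2531 and 2743 under both compounds. CML39, at 28765324 to 28765803, had 60.7, 31.5 and 11.7 FPKM untreated, 256, 488 and 245 under cycloheximide, and 616, 815 and 683 under both compounds. In either gene all 3 groups were separate, with both compounds highest. Untreated CML39 was highest in replicate 1 and lowest in replicate 3, while TCH3 and TCH2 were highest in replicate 3. The log2 difference between cycloheximide and untreated libraries was 5.68 ± 0.28 for CML38 and 3.41 ± 0.52 for CML39. A locus of the gene AT1G76630 on the other strand overlaps the end of CML39 by 18 bp and had 16.9 to 23.5 FPKM in the 9 libraries.

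CML40 and CML42 were low in untreated plants. CML40, at 296054 to 299263 of chromosome 3 on the plus strand, had 0.994, 0.897 and 1.39 FPKM untreated, 176, 285 and 371 under cycloheximide, and 288, 328 and 418 under both compounds. Its treated groups overlapped. Its log2 difference was 7.0 ± 0.26, the 53rd largest of the tested loci. A locus on the opposite strand overlaps it over 2067 bp and had 0.773 to 0.793 FPKM untreated, 5.01 to 9.50 with cycloheximide and 5.81 to 7.27 with both compounds. By its name the library kit keeps no strand, but the series' design speaks of a stranded protocol, so reads of such overlapping loci may not be separable. CML42, known in Arabidopsis for a role in trichome branching and for restraining herbivore defence, lies at 11133186 to 11133970 of chromosome 4 on the minus strand. It had 2.70, 3.35 and 3.26 FPKM untreated, 14.3, 20.9 and 31.6 under cycloheximide, and 25.4, 24.4 and 50.3 under both compounds. Its treated groups overlapped, and its log2 difference with cycloheximide was 2.44 ± 0.33.

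CML11 did not share this pattern. CML11, at 8124083 to 8125931 of chromosome 3 on the minus strand, had 7.09, 8.85 and 8.11 FPKM untreated, 6.92, 7.60 and 8.0 under cycloheximide, and 8.64, 8.36 and 5.84 under both compounds. All 3 groups overlapped, and the log2 difference was -0.08 ± 0.14 with cycloheximide and 0.00 ± 0.14 between the treated groups. Across the 9 libraries its Pearson r with the mean profile of the members was -0.12, while those of the other 8 lay between 0.93 and 0.99. The mean profile contains each gene itself, and the r describes the step between untreated and treated libraries more than anything within groups.

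With cycloheximide, 8 of the 9 genes passed an adjusted p of 0.05 as higher than untreated, where 26.5% of all tested loci did. The same 8 were separate from the untreated group and higher, against 30.5% of all tested loci. The median log2 difference of the 9 was 5.32, and that of all tested loci -0.05. Since the genes were chosen with this contrast known, nothing is read from these counts.

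Untreated and dexamethasone + cycloheximide libraries gave the same division, with 8 of 9 passing as higher where 30.8% of tested loci did, and CML11 the exception. The same 8 were separate from the untreated group and higher, against 33.3% of tested loci. The ratio of mean FPKM was 113 for TCH3, 61.6 for CML23, 5.48 for TCH2, 895 for CML37, 79.1 for CML38, 20.3 for CML39, 315 for CML40 and 10.8 for CML42. This contrast holds both compounds and shares its untreated libraries with the one above.

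Between dexamethasone + cycloheximide and cycloheximide alone, which addresses the activation of AP1-GR without new protein synthesis, the genes stood closer together. In the limma fit without a block for replicate number, none of the 9 passed an adjusted p of 0.05, where 1.91% of tested loci passed as higher. In that fit 2 of the 9 had an unadjusted p under 0.05, as did 23.1% of tested loci. TCH3, CML37, CML38 and CML39 were higher in every library with both compounds than in every library with cycloheximide alone, a separation that 14.4% of tested loci showed. Log2 differences were 1.16 ± 0.52 for CML39, 0.74 ± 0.18 for CML37, 0.63 ± 0.28 for CML38, 0.56 ± 0.35 for TCH3 and 0.55 ± 0.33 for CML42. They were 0.39 ± 0.25 for CML23, 0.36 ± 0.26 for CML40, 0.22 ± 0.28 for TCH2 and 0.00 ± 0.14 for CML11. The median of the 9 was 0.55, and that of all tested loci 0.01. With a replicate block in the fit 1 of the 9, CML37, passed as higher, where 3.24% of tested loci did.

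Cycloheximide replicate 1 was the lowest of the 6 treated libraries for 7 of the 8 genes other than CML11. Without it the median log2 difference of the 9 between the treated groups was 0.28, and without cycloheximide replicate 2 or 3 it was 0.55 or 0.72. Leaving out replicate 1, 2 or 3 of the group with both compounds gave 0.62, 0.56 or 0.39. The floral organ gene AP3 had 13.0, 1.16 and 5.19 FPKM in cycloheximide replicates 1, 2 and 3, PI had 37.1, 23.3 and 27.8, and AG had 2.66, 0.420 and 1.22, each highest in replicate 1. With both compounds AP3 had 1.94, 0.641 and 0.487 FPKM, PI had 17.3, 20.4 and 15.9, and AG had 0.235, 0.299 and 0.134. PI and AG were lower in every library with both compounds than in every one with cycloheximide alone, and AP3 overlapped. The part of tissue make-up in the members' values was not tested.

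Markers of the labelled tissue were present, and so were some of other tissues. The phloem gene SUC2 had 25.0 to 47.2 FPKM over the 9 libraries. Of the floral organ genes, PI had 15.9 to 43.5 FPKM, AP3 0.487 to 13.0 and AG 0.134 to 2.66. The meristem and inflorescence genes STM, KNAT1, WUS, CLV3, LFY and TFL1 were above 5 FPKM in every library, the pollen gene VGD1 and the root hair gene EXPA7 were under 0.03 FPKM in every library, and the leaf gene RBCS1A was abundant at 1482 to 3184 FPKM. STM differed by -0.78 ± 0.14 in log2 between cycloheximide and untreated libraries, KNAT1 by -0.76 ± 0.12 and RBCS1A by -0.70 ± 0.19, with limma adjusted p of 0.0017, 0.000814 and 0.016. WUS rose from 6.87 to 12.2 FPKM (log2 0.75 ± 0.10, adjusted p = 0.000496) and LFY from 20.7 to 32.5 (0.62 ± 0.15, adjusted p = 0.00756), while CLV3 and TFL1, at -0.09 and -0.08 in log2, did not pass. Their part in the members' differences was not tested. TFL1, which AP1 is known to repress, fell by 1.85 in log2 when dexamethasone was added to cycloheximide (SE 0.15, limma adjusted p = 0.00279). Absolute depth is unknown, and the relative depth of the libraries, read from the step of 1 fragment at loci of a single short length, ran from 0.364 to 1.

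The 7 calmodulin genes, whose proteins are the reference for the family, mostly fell with cycloheximide. With cycloheximide 5 of 7 fell and 1 rose at an adjusted p under 0.05 in limma, with a median log2 difference of -0.73, where 28.2% of tested loci fell and 26.5% rose. CAM1 fell from 450 ± 26.5 to 236 ± 28.3 FPKM (log2 -0.93 ± 0.12, adjusted p = 0.000379), and CAM6 and CAM5 fell by 0.79 and 0.73 in log2. CAM2, the touch-induced member, rose from 120 ± 9.93 to 283 ± 5.67 FPKM (log2 1.23 ± 0.09, adjusted p = 1.41e-05). CAM3 had 251 ± 9.77 against 299 ± 10.8 FPKM and did not pass (adjusted p = 0.0596). Summed over the 7 calmodulins, FPKM was 1883 to 2027 in untreated libraries, 1391 to 1597 with cycloheximide and 1495 to 1499 with both compounds. Summed over the 9 described genes it was 233 to 430, 9413 to 14841 and 16921 to 19230. So transcripts of the 9 genes, chosen with these values in view, were below those of the calmodulins in every untreated library. They were above them in every treated one. Summed over 39 other calmodulin-like genes, FPKM was 591.3 to 693.5 untreated, 2882 to 4035 with cycloheximide and 4459 to 5280 with both compounds. That sum stood to the calmodulins in the same way, so the crossing is not particular to the 9.

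TCH3, TCH2 and CML23 each stand near a calmodulin gene on the same strand. TCH3 lies 616 bp from CAM2 on chromosome 2, TCH2 lies 4907 bp from CAM1 on chromosome 5, and CML23 lies 2845 bp from CAM4 on chromosome 1. CAM1 had 465, 465 and 419 FPKM untreated and 261, 241 and 206 with cycloheximide, whereas all TCH2 libraries were higher with cycloheximide. CAM4 fell from 515 ± 20 to 321 ± 44.7 FPKM (log2 -0.69 ± 0.13, limma adjusted p = 0.00228), beside a CML23 that was 48.1 times its untreated mean. CAM2 rose by 1.23 in log2, where TCH3 differed by 6.36. On its other side, 976 bp away, TCH3 has the calmodulin-like gene AT2G41090, which rose from 18.5 to 162 FPKM (log2 3.05 ± 0.12, adjusted p = 6.78e-07). CML11 lies 4588 bp from ACA13, a calcium pump gene that rose by 6.86 ± 0.23 in log2 (adjusted p = 3.17e-07), while CML11 did not separate between groups.

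**Figure D3:**
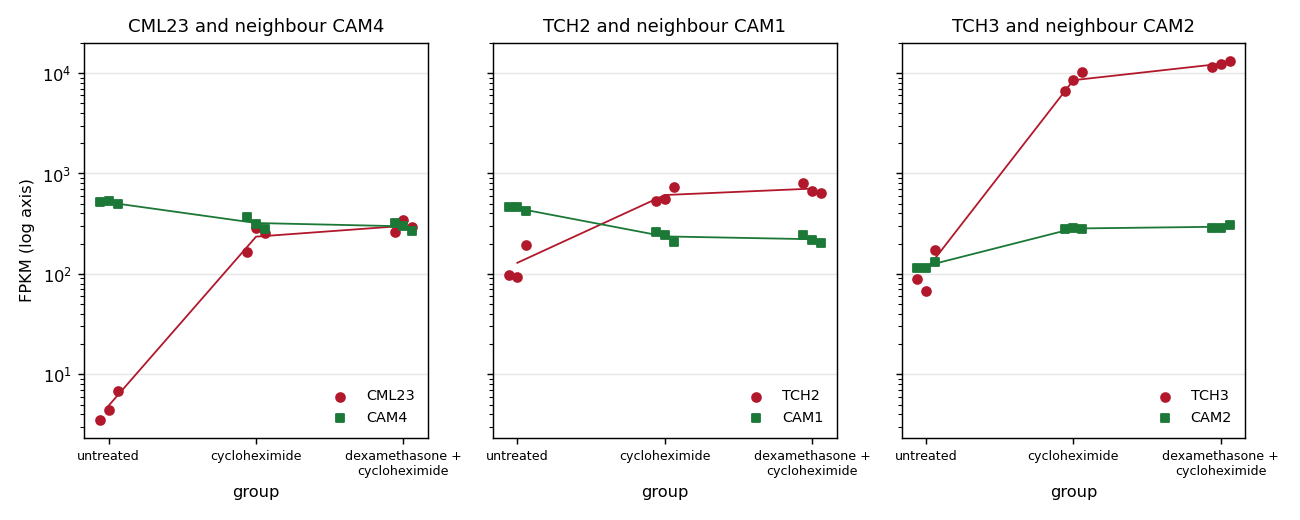
FPKM on a log axis of 3 calmodulin-like genes (red circles) and the calmodulin gene beside each on the chromosome (green squares), by group, with lines through means of 3 libraries. CAM4 and CAM1 are lower in treated libraries while CML23 and TCH2 are higher, and CAM2 and TCH3 are both higher.

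Among the other calmodulin-like genes, 41 were listed, 16 did not pass the filter on low values, 2 shared a locus with another gene and 23 were tested. With cycloheximide 19 of these 23 rose and 1 fell, with a median log2 difference of 1.71, where 26.5% of tested loci rose and 28.2% fell. A gene that passed the filter only through the treated libraries had to differ, and such genes are in this count and median. AT3G59440 and AT4G26470, with untreated means of 0.723 and 0.266 FPKM, are examples. So the count supports nothing about the family, and it says nothing of the 16 left out. With no filter the median over 39 genes was 0.34. The same limit holds for the later count of both compounds against untreated. AT3G29000 rose from 1.01, 1.86 and 2.25 FPKM to 515, 600 and 912 (log2 7.95 ± 0.27, limma adjusted p = 3.59e-07). AT5G39670 rose from 2.02, 2.11 and 3.08 to 441, 519 and 587 FPKM (log2 7.25 ± 0.14, adjusted p = 6.85e-08). AT3G25600 rose by 3.80 ± 0.16 in log2, and the single gene that fell, AT1G12310, did so by 0.60. RefSeq describes these unnamed IDs only as calcium-binding EF-hand family proteins.

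**Figure D4:**
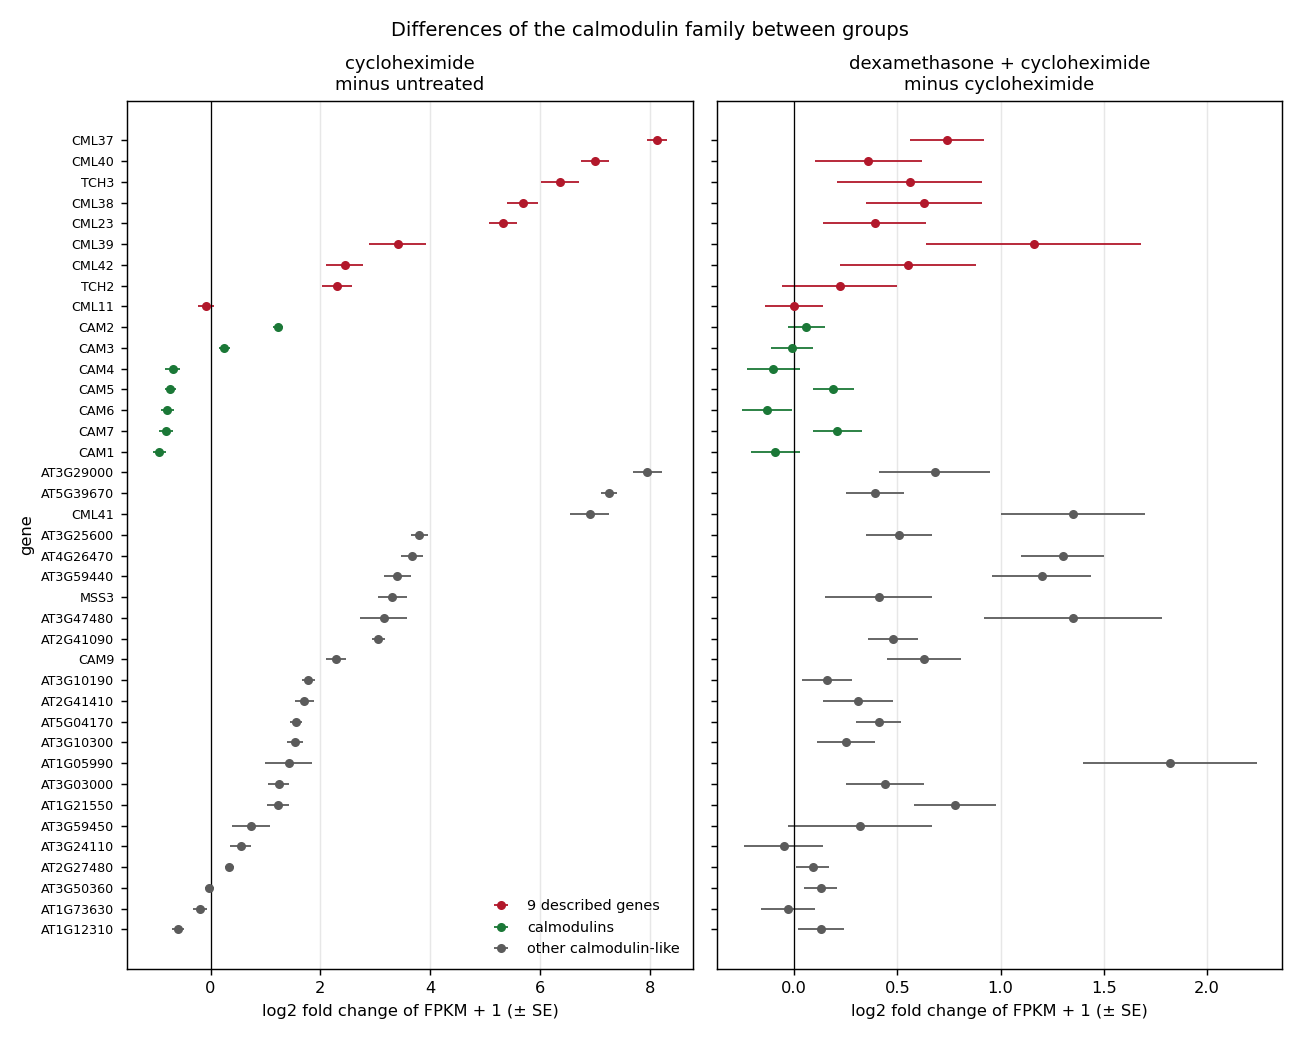
Log2 fold change of FPKM + 1 with its SE, one row per gene, for the 9 described genes (red), 7 calmodulins (green) and 23 other calmodulin-like genes (grey), between cycloheximide and untreated libraries (left) and between the treated groups (right, on a narrower axis). CML11 lies at -0.08 on the left among members from 2.30 to 8.13, and 5 of the 7 calmodulins lie from -0.93 to -0.69.

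Between the treated groups 2 of the 23 passed as higher in the fit without a replicate block. AT3G59440 rose from 11.9, 16.4 and 24.9 FPKM with cycloheximide to 37.5, 38.1 and 45.9 with both compounds (log2 1.20 ± 0.24, limma adjusted p = 0.0413). AT4G26470 rose from 11.0, 14.9 and 20.3 to 39.9, 31.8 and 44.3 FPKM (log2 1.30 ± 0.20, adjusted p = 0.0221). Over the alternatives their adjusted p ranged from 0.0162 to 0.138 and from 0.0117 to 0.0864, so neither call held throughout. None of the 7 calmodulins passed in limma, 0 had an unadjusted p under 0.05, and their log2 differences lay between -0.13 and 0.21. No calcium-dependent kinase of 24 tested passed in the fit without a block. There 10 were higher at an unadjusted p under 0.05, as were 13.3% of all tested loci. Once replicate number entered the fit as a block, 4 of the 30 other calmodulin and calmodulin-like genes passed. They were AT3G59440, AT4G26470, AT1G05990 and CAM9, the last 2 named after their values were seen. The kinases CPK8, CPK9 and CPK27 also passed as higher with that block (limma adjusted p = 0.0408, 0.0439 and 0.0388).

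Calcium signalling genes outside the family were read in the same way, from lists chosen with earlier results of these data known. With cycloheximide 26.5% of all tested loci rose and 28.2% fell in limma. The limit from the filter on low values holds here too, so the counts support nothing about these families. Calcium-dependent protein kinases, which join an EF-hand part to a kinase, had 16 of 24 tested genes rise and 1 fall with cycloheximide. Their median log2 difference was 0.73, and 10 of the 34 listed kinases did not pass the filter. CPK28, which limits immune signalling, rose from 34.8 to 744 FPKM (log2 4.43 ± 0.25, limma adjusted p = 3.52e-06), and CPK4 and CPK6, known from abscisic acid responses, rose by 3.22 ± 0.17 and 2.87 ± 0.14. The calcineurin B-like sensors, which recruit partner kinases, had 0 of 6 rise and 4 fall in limma, with a median of -0.46, and 1 was higher and 5 lower at an unadjusted p under 0.05, as were 28.7% and 31.5% of tested loci. CBL3 fell from 52.5 to 34.9 FPKM (log2 -0.58 ± 0.08, adjusted p = 0.000645) and CBL2 from 27.6 to 18.3.

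Calcium pumps and exchangers, which clear calcium from the cytosol, had 9 of 14 rise and 1 fall, with a median of 1.42. Of all tested loci 26.5% rose and 28.2% fell. Of the 18 listed, 2 did not pass the filter and 2 shared a locus, and the same limit holds for this count. ACA13 had 0.684, 0.812 and 1.57 FPKM untreated, 184, 213 and 310 under cycloheximide, and 541, 431 and 572 under both compounds. It was the single gene of the calcium lists outside the family to pass between the treated groups (log2 1.15 ± 0.23, limma adjusted p = 0.0388), of 52 tested, and 8 passed in the fit that blocks on replicate number. ACA11, a pump of the vacuole membrane, rose by 2.62 ± 0.16 with cycloheximide. All 8 tested calmodulin-binding transcription factors rose with cycloheximide, with a median of 2.00, where 26.5% of all tested loci rose. This short list was chosen with earlier results of these data known, so the count supports nothing about such factors. SARD1 and CBP60G, which promote salicylic acid synthesis, rose by 7.64 ± 0.30 and 7.0 ± 0.29 (adjusted p = 6.78e-07 and 8.35e-07), and CAMTA3, which restrains it, by 2.39 ± 0.23. None of these factors passed between the treated groups in the fit without a block. There 3 of 8 were higher at an unadjusted p under 0.05, beside the 13.3% of all loci given above. With the block on replicate number, CAMTA4 and CBP60G passed as higher (limma adjusted p = 0.0387 for each).

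Against untreated libraries, the group with both compounds gave much the same counts in limma, where 30.8% of tested loci rose and 33.1% fell. Of the calmodulins 1 of 7 rose and 5 fell, and of the other calmodulin-like genes 20 of 23 rose and 1 fell. Of the calcium-dependent kinases 16 of 24 rose and 1 fell, and of the pumps and exchangers 9 of 14 rose and 1 fell. Of the calcineurin B-like sensors 1 of 6 rose and 5 fell, the riser being CBL4, a sensor of salt tolerance (log2 1.04 ± 0.15, adjusted p = 0.000453). All 8 calmodulin-binding factors rose, led by SARD1 at 8.19 ± 0.30 and CBP60G at 8.01 ± 0.29 in log2.

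Windows of the 250 bases before each deposited locus were searched on both strands for 4 letter strings: CGCGT, the core bound by calmodulin-binding CAMTA factors, TTGAC, the core bound by WRKY factors, CACGTG, the G-box of bZIP and bHLH factors, and the ethylene-related string GCCGCC. The windows of TCH3 and CML37 lie wholly inside the gene as RefSeq annotates it, whose start is 792 and 454 bp further upstream, so they are not promoters. Those of CML42, CML39, CML40 and CML23 reach 105, 63, 30 and 22 bases into the gene. The string CGCGT was in 2 of the 9 windows, TCH2 and CML23, or 2 of 7 without TCH3 and CML37, and in 7.7% of 27319 windows of the same length. TTGAC was in 5 of 9 windows, or 4 of 7 without TCH3 and CML37, and in 44.3% of all, and the other strings were in 0 of 9 and in 6.5% and 2.0% of all. TCH2 held CGCGT 4 times, at 83, 82, 64 and 63 bases before the locus, and CML23 held it 3 times, at 78, 77 and 63. The string overlaps its own reverse complement in ACGCGT, so the matches at neighbouring positions are the 2 strands of 1 place. The windows of the pair are shown with that of CML11, which held no string. Capitals mark CGCGT or TTGAC on either strand, and all 3 lie on the minus strand of build TAIR10.1.
TCH2, chr5:14999620-14999869: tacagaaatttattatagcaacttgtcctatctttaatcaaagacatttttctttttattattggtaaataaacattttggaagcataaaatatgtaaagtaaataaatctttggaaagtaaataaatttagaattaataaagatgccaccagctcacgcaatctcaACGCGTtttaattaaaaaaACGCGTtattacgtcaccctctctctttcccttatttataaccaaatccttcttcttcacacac
CML23, chr1:24771372-24771621: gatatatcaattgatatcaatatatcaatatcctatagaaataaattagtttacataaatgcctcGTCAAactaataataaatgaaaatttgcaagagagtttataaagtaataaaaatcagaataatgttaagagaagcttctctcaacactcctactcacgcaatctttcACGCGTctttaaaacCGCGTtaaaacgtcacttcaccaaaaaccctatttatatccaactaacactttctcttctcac
CML11, chr3:8125932-8126181: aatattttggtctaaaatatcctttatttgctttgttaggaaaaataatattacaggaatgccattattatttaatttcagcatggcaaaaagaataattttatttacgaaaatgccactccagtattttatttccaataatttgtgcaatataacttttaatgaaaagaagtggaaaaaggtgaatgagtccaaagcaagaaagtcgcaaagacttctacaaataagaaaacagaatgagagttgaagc

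TCH2 and CML23, the 2 genes with CGCGT in the window, had log2 differences of 2.30 and 5.32 with cycloheximide. The 7 without it in the window had -0.08 to 8.13. Leaving out TCH3 and CML37, whose windows are not promoters, the range was -0.08 to 7.0. A match describes letters in a window and does not show that a factor binds there.

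Outside the members, 3 genes had profiles most like their mean over the 9 libraries, among 6558 tested loci that hold a single gene with a RefSeq symbol. Other loci were not ranked and may be closer. SCY1 had r of 0.998, with 53.5 to 57.3 FPKM untreated, 120 to 142 with cycloheximide and 142 to 155 with both compounds. ATCRT1 had r of 0.997, with 14.5 to 15.9, 38.7 to 45.6 and 45.4 to 49.2 FPKM. RMA3, a membrane-anchored RING protein gene, had r of 0.995, with 22.4 to 23.7, 37.7 to 42.9 and 42.7 to 42.8 FPKM. In each the step between untreated and treated libraries was smaller than in 8 of the 9 members, and the likeness is in shape and not in size.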

How the data were processed

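The authors aligned and quantified the reads with TopHat, Cufflinks and Cuffdiff on TAIR10, per the submitters' processing notes, and tool versions are not given in the sources used here. FPKM were used as deposited by the authors for each locus and library, and groups came from the labels alone. Of 33871 loci, 19569 had an OK status throughout and a mean of at least 1 FPKM, and these entered a limma fit (version 3.58.1, R 4.3.3) of log2(FPKM + 1), with an intensity trend, all 9 libraries in one fit (6 residual degrees of freedom) and Benjamini-Hochberg adjustment over all tested loci. The fit was tested on simulated data of 19569 loci. Per comparison, 100 loci for each size of change were altered, drawn only from loci above a set mean level. Noise was independent between libraries, without pairing, and all other loci were unchanged. Of changes of log2 1 and log2 2, 82% and 98% were recovered for cycloheximide against untreated and 82% and 93% between the treated groups. For both compounds against untreated they were 75% and 92%. False calls made up 6.74%, 7.41% and 3.47% of calls in these simulated comparisons. Far more loci passed in the real comparisons with untreated, so these rates hold for the simulated setting only.

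Members and gene lists were chosen with earlier results of these data known. Named genes are the members, their chromosomal neighbours, and per list and comparison up to 4 called genes of smallest p (2 where fewer were called). The 3 genes with a RefSeq symbol most like the members' mean profile were also named. CAM3, AT1G12310, AT1G05990, CAM9, CPK9 and the gene AT4G17750 were named after their values or sequences were seen, and so were overlapping loci. Tissue markers come from the marker lists. List genes whose locus holds another gene of the same strand were left out of counts. Deposited coordinates matched TAIR10.1, with every end within the chromosome lengths, and RefSeq supplied names and sequences. Replicates are called biological in the labels and correlated at r of 0.953 to 0.980 within groups. Deviations of same-numbered libraries correlated at 0.353, 0.131 and 0.213 between the treated groups, so the numbers were taken to pair those groups, and not between treated and untreated. The main fit holds no block, so its calls between the treated groups leave this pairing out. Calls of the fit with a replicate block are given beside them. At loci of a single short length, 96.0% to 100% of values above 0 were whole multiples of 1 fragment within 0.02, and absolute depth is unknown. Figures were drawn with matplotlib 3.10.9.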

Additional observations from a re-analysis of the deposited data

How the results depend on the processing

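Differences of the members other than CML11 kept their direction under every alternative (another pseudocount, filter, scaling, trend, set of libraries, replicate block or locus rule), and those of CML11 stayed between -0.17 and 0.16. Of the 540 member values 528 moved by less than the replicate spread and 12 by more, all 12 with another pseudocount, as for CML37 with cycloheximide, at 8.97 with a pseudocount of 0.1 and 6.59 with 5. Counts of calls moved by over 1.5 times between the treated groups only. Over all loci, 723 became 298 with no filter, 41 with only the 6 libraries, 1544 with these and the replicate block, 1102 with the replicate block, and 69 to 1248 when 1 library was left out. Other calmodulin and calmodulin-like calls, 2, became 1 with a pseudocount of 0.1, 0 with no filter or with 6 libraries, 4 with the replicate block in either set of libraries, and 0 to 8 with 1 library left out, the 8 without cycloheximide replicate 3. Other calcium signalling calls, 1, became 0 with a pseudocount of 0.1, no filter or 6 libraries, 3 with a pseudocount of 5, 8 with the replicate block in either set, 4 without loci shorter than 300 bp, and 0 to 4 with 1 library left out. Where a count of 0 arose, 12 of 30 and 21 of 52 genes had an unadjusted limma p under 0.05 in the 9-library fit, as did 23.1% of all loci. The cause of these shifts was not tested. The replicate block changed no call among the members against untreated libraries. Precision is limited by 3 libraries per group and by values near 1 FPKM in untreated CML37 and CML40.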
